A study of Rattus norvegicus with 10 samples.

Results

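The interferon regulatory factor genes Irf1, Irf7 and Irf8 are 3 of 4736 genes measured in this series and are represented by 5 of the 8799 probe sets of the array: 2 for Irf1, 2 for Irf7 and 1 for Irf8. They were taken as every probe set that the platform annotation assigns to one of these symbols and to no other gene. The arrays were Affymetrix rat expression arrays, which measure RNA by its binding to short probes, hybridised with total RNA of primary microglia from neonatal rat brain. Microglia are the resident macrophages of the brain. One brain was used per flask, in medium with 15% fetal calf serum, and the cells were plated at 100000 per dish on day 15. One set of cultures was then exposed for 16 hours to interferon gamma (IFN-gamma) at 100 U/ml in fresh medium, and control cultures were given fresh medium without it. There were 3 IFN-gamma cultures (numbered 1, 2 and 3) and 5 control cultures (numbered 1, 2, 3, 5 and 6), and the RNA of IFN-gamma culture 1 was measured on 3 technical arrays (1a, 1b and 1c). Rat strain, sex and exact age are not given in the sources used here, and nothing says that a culture number marks a shared brain or day.

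Interferon regulatory factors bind DNA through a conserved amino-terminal domain that recognises GAAA repeats, the core of the interferon-stimulated response element (ISRE). IFN-gamma, which T cells and natural killer cells release, acts through its receptor and the kinases Jak1 and Jak2, and the pathway reaches its primary target genes at a different element, the gamma-activated site (GAS). Irf1 is a textbook primary target of IFN-gamma and in turn activates genes of antigen presentation. Irf8 is a factor of the macrophage and microglial lineage that binds DNA with partners such as Spi1 (PU.1), and Irf7 is the main amplifier of type I interferon production, itself induced through the ISRE-binding complex ISGF3.

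The promoters of the 3 genes are shown because matches to the GAS and ISRE patterns differed between Irf7 and the other 2. The sequences are those of RefSeq on the rat build GRCr8, 250 bases before to 50 bases after the start site that the table gives, and all 3 genes were matched. Irf1 lies at chr10:38417685-38417984 on the plus strand, Irf7 at chr1:205799974-205800273 on the minus strand and Irf8 at chr19:65699034-65699333 on the plus strand. Each is printed 5′ to 3′ in the direction of its gene, with capitals marking every match to the GAS pattern TTCNNNGAA, which reads the same on both strands, where N is any base, or to the ISRE core on either strand, spelled GAAA, then 2 bases of any kind, then GAAA. No capital stretch belongs to both patterns.
Irf1: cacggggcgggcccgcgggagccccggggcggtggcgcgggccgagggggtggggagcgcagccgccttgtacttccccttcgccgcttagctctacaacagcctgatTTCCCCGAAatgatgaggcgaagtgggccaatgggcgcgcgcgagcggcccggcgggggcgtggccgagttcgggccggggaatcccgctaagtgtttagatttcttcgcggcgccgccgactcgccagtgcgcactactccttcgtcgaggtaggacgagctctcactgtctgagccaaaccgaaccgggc
Irf7: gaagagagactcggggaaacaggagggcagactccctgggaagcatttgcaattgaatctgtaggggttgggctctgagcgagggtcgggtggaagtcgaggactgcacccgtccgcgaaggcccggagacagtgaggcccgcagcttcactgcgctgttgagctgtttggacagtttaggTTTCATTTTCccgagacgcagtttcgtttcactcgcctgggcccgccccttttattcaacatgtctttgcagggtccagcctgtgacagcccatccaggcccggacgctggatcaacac
Irf8: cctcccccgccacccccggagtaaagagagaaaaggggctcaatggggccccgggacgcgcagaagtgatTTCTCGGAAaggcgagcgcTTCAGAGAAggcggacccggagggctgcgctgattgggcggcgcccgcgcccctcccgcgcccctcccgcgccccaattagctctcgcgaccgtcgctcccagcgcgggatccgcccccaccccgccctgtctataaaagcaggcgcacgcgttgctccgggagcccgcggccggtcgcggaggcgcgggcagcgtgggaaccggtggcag
Irf1 had 1 GAS match, from 142 to 134 bases before the start site, and no ISRE match. Irf8 had 2 GAS matches, from 180 to 172 and from 161 to 153 bases before the start site, and no ISRE match. Irf7 had no GAS match and 1 ISRE match, on the opposite strand from 69 to 60 bases before the start site. The start site used for Irf7 lies 520 bases inside the outer edge of the gene in RefSeq's gene table, so the Irf7 window and its matches depend on that start, whereas for Irf1 and Irf8 the tables give the same start. Over all 33469 promoter windows of this length 8.87% held a GAS match and 3.92% an ISRE core match. A match to these letters is a description of the window and says nothing about whether a factor was bound.

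Irf1 rose 10.1-fold with IFN-gamma in its brighter probe set and 5.82-fold in the other, and Irf8 rose 2.85-fold, whereas Irf7 did not pass the test in either probe set. Values are normalised levels, log2(signal + 16) after quantile normalisation, on which a signal of 0 is 4, so the fold changes of dim probe sets are understated. Differences were tested with limma across 8740 probe sets, with Benjamini-Hochberg adjusted p-values and a threshold of 0.05. In that fit 1.53% of all probe sets were called, 0.927% as higher and 0.606% as lower, and the 3 IFN-gamma cultures lay above all 5 controls in 4.28% of probe sets and below all of them in 3.4%. Among the 5 probe sets of the 3 genes 3 rose and 0 fell, and 4 had IFN-gamma cultures entirely above the controls. In bulk RNA a change in RNA per cell and a change in the share of cells that express a gene cannot be told apart.

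Irf1 is the activator that gave the family its name. Its brighter probe set (M34253_g_at) had levels of 8.97, 9.03 and 9.21 in IFN-gamma cultures 1, 2 and 3, against 5.53, 5.56, 5.89, 6.02 and 5.68 in control cultures 1, 2, 3, 5 and 6. All 3 IFN-gamma cultures were far above every control, with a gap of 2.96 between the lowest IFN-gamma culture and the highest control. The means were 9.07 ± 0.12 (SD, n = 3) with IFN-gamma and 5.74 ± 0.21 (SD, n = 5) in controls. The log2 fold change was 3.33 ± 0.17 SE with a 95% confidence interval of 2.94 to 3.73 (limma adjusted p = 1.08e-05). It ranked 9 from the top by log2 fold change and 7 by p among the 8740 probe sets. As deposited, before any scaling, its signal was 391.9, 1244.4, 255.3, 714.6 and 1048.3 on IFN-gamma arrays 1a, 1b, 1c, 2 and 3, and 38.6, 22.2, 20.1, 55.7 and 43.3 on control arrays 1, 2, 3, 5 and 6. Even the dimmest IFN-gamma array was thus brighter than every control array without any normalisation.

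The other Irf1 probe set (M34253_at) was designed on the same sequence record and is not an independent measurement of the gene. It had levels of 7.25, 7.71 and 7.56 in IFN-gamma cultures 1, 2 and 3, against 4.94, 4.63, 5.8, 4.4 and 5.05 in control cultures 1, 2, 3, 5 and 6. The groups did not overlap, but control culture 3, the dimmest array of the series, stood highest among the controls. The log2 fold change was 2.54 ± 0.30 SE with a 95% confidence interval of 1.87 to 3.22 (limma adjusted p = 0.00254).

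**Figure D1:**
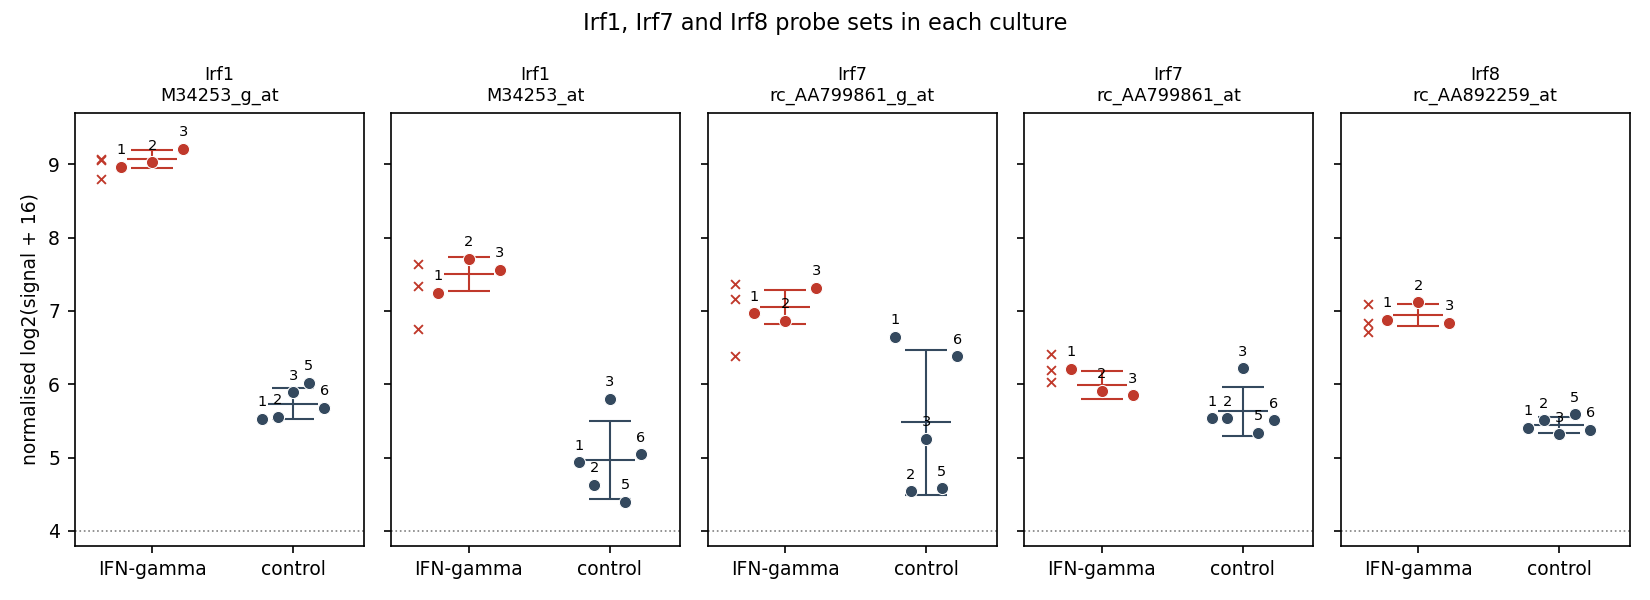
Normalised log2(signal + 16) levels (vertical axis) of the 5 probe sets of Irf1, Irf7 and Irf8, with IFN-gamma cultures in red and control cultures in dark blue. Filled points are cultures with their numbers, crosses are the 3 technical arrays of IFN-gamma culture 1, horizontal bars are the mean ± SD and the dotted line is the floor of 4; the groups are apart in all panels but that of rc_AA799861_at, and the controls of Irf7 rc_AA799861_g_at spread from 4.54 to 6.65.

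Irf8, the lineage factor, was measured by 1 probe set (rc_AA892259_at). Its levels were 6.88, 7.12 and 6.84 in IFN-gamma cultures 1, 2 and 3, against 5.41, 5.51, 5.32, 5.59 and 5.38 in control cultures 1, 2, 3, 5 and 6. The controls were tightly grouped and every IFN-gamma culture lay at least 1.25 above the highest of them. The means were 6.95 ± 0.15 (SD, n = 3) with IFN-gamma and 5.44 ± 0.11 (SD, n = 5) in controls. The log2 fold change was 1.51 ± 0.15 SE with a 95% confidence interval of 1.16 to 1.86 (limma adjusted p = 0.00112). It ranked 60 by log2 fold change and 26 by p, since its spread between cultures was small.

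Irf7, the amplifier of type I interferon, had a log2 fold change of 1.57 in its brighter probe set (rc_AA799861_g_at), close to that of Irf8, but with a far wider spread among controls. Brighter means a higher mean over the cultures of both groups, so the IFN-gamma cultures had a part in that choice. In controls alone this probe set had the lower mean, 5.48 against 5.63 for the other. The levels of rc_AA799861_g_at were 6.97, 6.87 and 7.32 in IFN-gamma cultures 1, 2 and 3, against 6.65, 4.54, 5.26, 4.58 and 6.38 in control cultures 1, 2, 3, 5 and 6. Control cultures 1 and 6 were nearly as high as the IFN-gamma cultures, whereas control cultures 2 and 5 lay near the floor. The means were 7.05 ± 0.23 (SD, n = 3) with IFN-gamma and 5.48 ± 0.99 (SD, n = 5) in controls. The difference had a standard error of 0.50 and a 95% confidence interval of 0.44 to 2.69 for this probe set alone (limma adjusted p = 0.237). The lowest IFN-gamma culture exceeded the highest control by 0.22, which is less than the SD of 0.52 among the 3 technical arrays of a single culture. Technical array 1c read 6.39, below control culture 1, while 1a and 1b read 7.37 and 7.16.

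The dimmer Irf7 probe set (rc_AA799861_at), designed on the same expressed sequence tag, was dimmer over both groups together but not in controls alone. It had levels of 6.21, 5.91 and 5.85 in IFN-gamma cultures 1, 2 and 3, against 5.54, 5.54, 6.22, 5.34 and 5.51 in control cultures 1, 2, 3, 5 and 6. Here the groups overlapped, and the high control was culture 3. The log2 fold change was 0.36 ± 0.22 SE with a 95% confidence interval of -0.14 to 0.86 (limma adjusted p = 0.671). The probe sets of Irf7 thus placed different control cultures at the top, 1 and 6 in one and 3 in the other.

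The place of a probe set in the order of its own array does not depend on scaling between arrays, and it is used here to compare arrays and not probe sets, which differ in their own brightness. The brighter Irf1 probe set exceeded 98.3% to 98.9% of the probe sets on the 5 IFN-gamma arrays and 68.5% to 80.5% on the 5 control arrays. Irf8 exceeded 90.3% to 93.3% on IFN-gamma arrays and 61.7% to 70.1% on control arrays. For both genes these ranges were apart, technical arrays included. The brighter Irf7 probe set exceeded 86.7% to 94.6% on IFN-gamma arrays and 32.8% to 89.7% on control arrays, and these ranges overlapped.

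**Figure D2:**
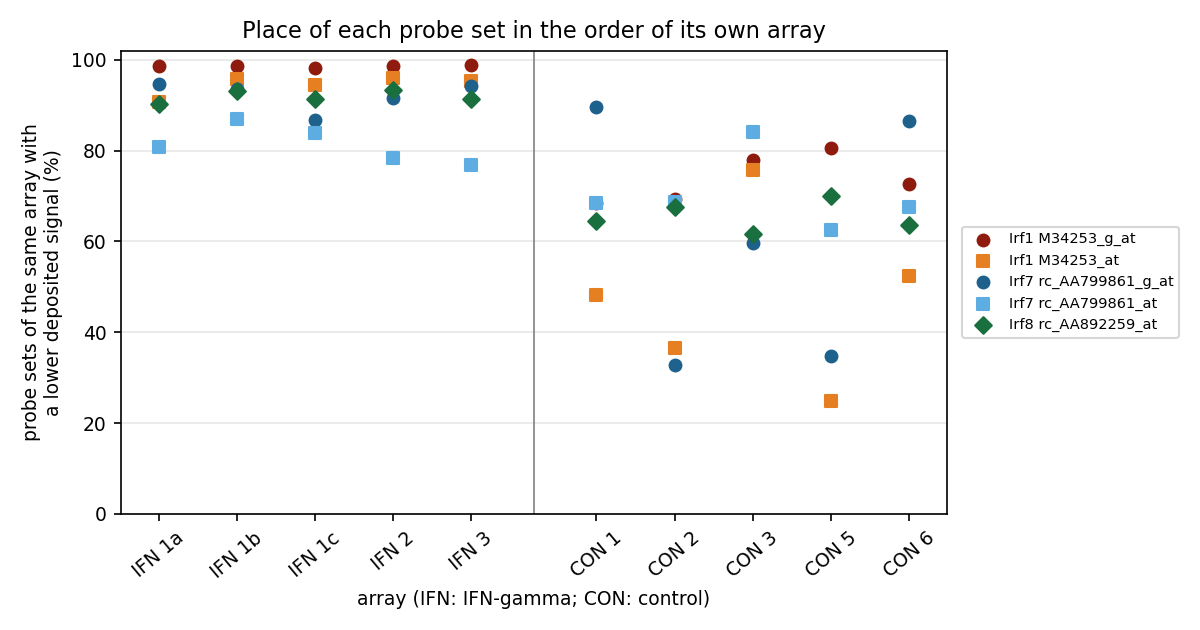
Share of the probe sets of the same array that had a lower deposited signal (vertical axis, percent) for each probe set of Irf1, Irf7 and Irf8 on the 5 IFN-gamma arrays (left) and the 5 control arrays (right). The brighter Irf1 probe set lies between 98.3% and 98.9% on IFN-gamma arrays and no higher than 80.5% on control arrays, while the brighter Irf7 probe set reaches 89.7% on control array 1.

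The technical arrays of IFN-gamma culture 1 show the spread of repeated measurement for that culture alone. Their SD was 0.15 for the brighter Irf1 probe set, 0.45 for the other, 0.52 and 0.19 for the brighter and dimmer Irf7 probe sets and 0.20 for Irf8. Between the 5 control cultures the SD was 0.21, 0.53, 0.99, 0.34 and 0.11 in the same order. For Irf8 the spread between control cultures was thus no larger than that between technical arrays, and for the brighter Irf7 probe set it was larger. The controls had lower levels and no technical arrays, so their own measurement error is not known. Because the median deposited signal of an array ran from 7.4 to 23.7, the levels were recomputed under 4 other scalings of the arrays. The brighter Irf1 probe set had log2 fold changes of 3.34 to 3.88 and Irf8 of 1.49 to 1.86 under these, each past the threshold, and Irf7 of 1.47 to 1.86, none past it. Over all 23 other settings the adjusted p ran from 1.35e-07 to 0.00961 for Irf1, from 0.000152 to 0.0939 for Irf8 and from 0.0644 to 0.593 for Irf7.

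**Figure D3:**
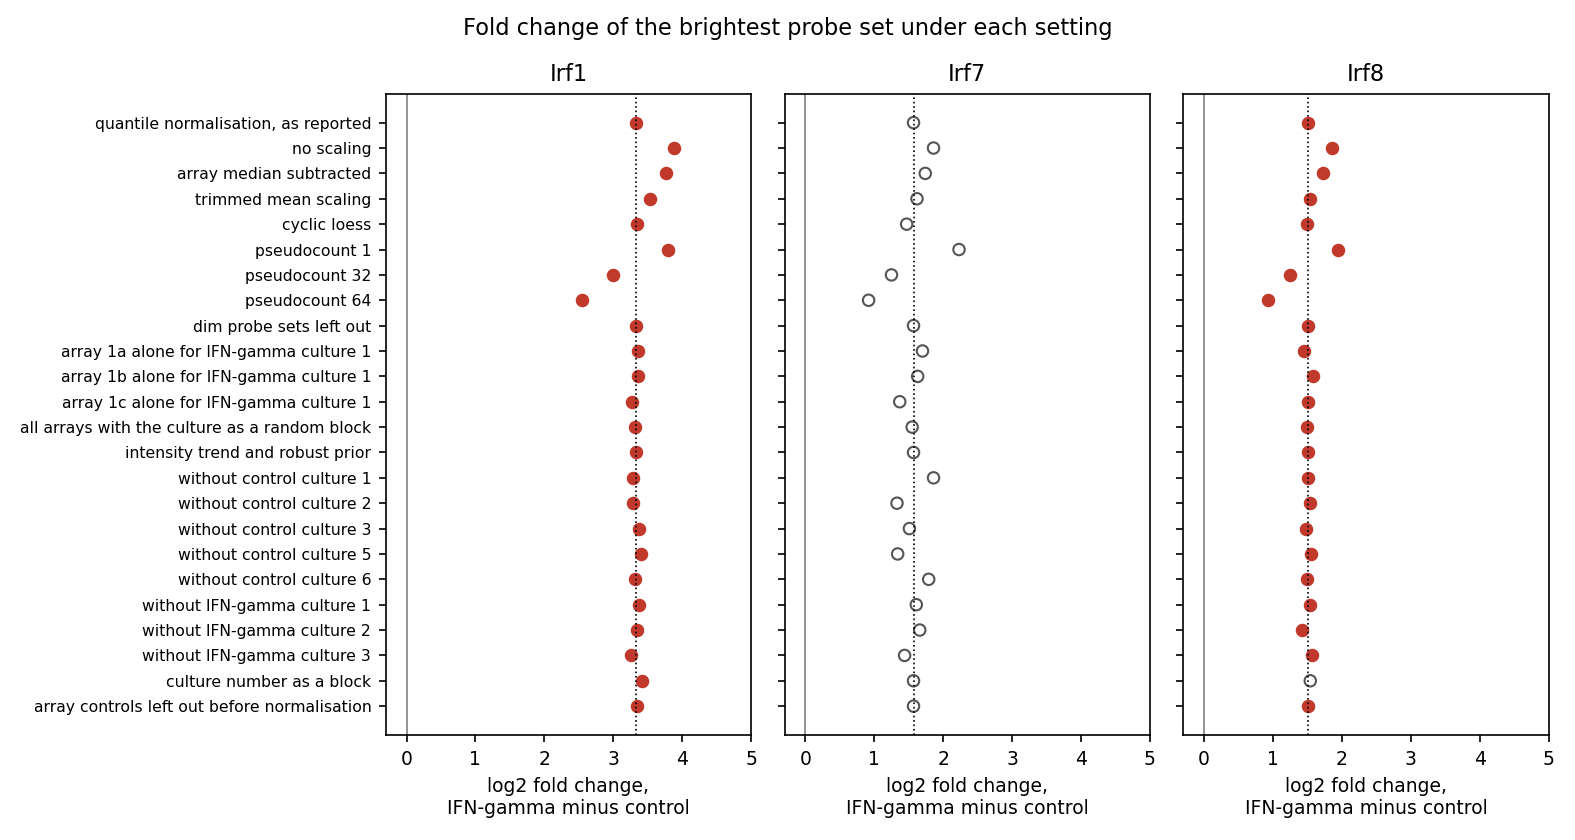
Log2 fold change, IFN-gamma minus control (horizontal axes), of the brighter Irf1 and Irf7 probe sets and of the Irf8 probe set under each setting of the processing (rows); red points had an adjusted p under 0.05 and open points did not, and the dotted line is the reported value. Irf1 lies between 2.54 and 3.88, Irf7 between 0.918 and 2.23 and Irf8 between 0.928 and 1.94.

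The whole series gave 81 probe sets higher and 53 lower with IFN-gamma. Higher calls were 60.4% of all calls, 78.7% with array medians subtracted and 97.4% with no scaling between arrays. Counted by gene, 0.887% of all genes were called higher and 0.697% lower. Of 10 measured genes of the microglia and macrophage marker list 3 rose (Lyz2, C1qb and C1qc) and 0 fell, and the summed normalised signal of the list was 9220 to 10200 in IFN-gamma cultures and 3700 to 4580 in controls. Without Lyz2 the sums were 3640 to 4160 in IFN-gamma cultures and 2000 to 2490 in controls. Only P2ry12 and Cx3cr1 of this list had a negative log2 fold change, at -0.646 and -0.285 (limma adjusted p = 0.657 and 0.87). Among the defining members of the list Csf1r lay near the floor in both groups, at 4.88 and 4.73. Of 8 astrocyte markers 1 fell (Glul) and 5 lay near the floor in both groups, with a summed signal of 243 to 307 in IFN-gamma cultures and 562 to 911 in controls. Without Glul the sums were 100 to 132 in IFN-gamma cultures and 89.2 to 172 in controls, so 1 gene carried that difference. Of 10 markers of T and natural killer cells 1 fell (Cd4, which rat macrophages also carry) and 6 lay near the floor, Ifng among them, with sums of 151 to 179 in IFN-gamma cultures and 247 to 327 in controls. Without Cd4 the sums overlapped as well, at 72.8 to 100 in IFN-gamma cultures and 71.6 to 158 in controls. Lists for oligodendrocytes, neurons, endothelial cells and fibroblasts (5, 7, 4 and 5 genes measured) gave 0 calls each by limma, with 1, 0, 0 and 3 genes at an unadjusted p under 0.05. Of all genes 11.1% had such a p in either direction, and the 3 fibroblast genes were lower with IFN-gamma. The summed signal of the fibroblast list was 118 to 142 in IFN-gamma cultures and 158 to 225 in controls, and those of the other 3 lists overlapped between the groups. The part of these shifts in the results for Irf1, Irf7 and Irf8 was not tested.

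Few calls were made among other family members and in the upstream pathway. Of 6 further interferon regulatory factors in the list 2 were measured, and 0 passed by limma, also at an unadjusted p under 0.05. Irf2, which competes with Irf1 for the same elements, was at 4.55 ± 0.07 (SD, n = 3) with IFN-gamma and 4.50 ± 0.16 (SD, n = 5) in controls, near the floor. Irf3, the constitutively present factor that starts the type I interferon response, was at 4.77 ± 0.25 with IFN-gamma and 4.87 ± 0.60 in controls by its brighter probe set. So close to the floor a fall would be hard to detect. Of 8 measured genes of the IFN-gamma receptor and JAK-STAT pathway 1 rose and 0 fell, with a median log2 fold change of 0.04 beside -0.02 over all 4736 genes, of which 0.887% were called higher and 0.697% lower. The gene that rose was Cish, a feedback inhibitor of cytokine receptors (log2 fold change 0.91, adjusted p = 0.037). In 14 of 23 other settings Cish no longer passed, 6 of which left out a single culture (adjusted p = 0.169 and 0.198 without IFN-gamma cultures 1 and 3, and 0.0776, 0.0596, 0.0741 and 0.0919 without control cultures 2, 3, 5 and 6). The phosphatase gene Ptpn6 had 0.99 (adjusted p = 0.246), the kinase gene Jak1 0.44 (adjusted p = 0.621) and the receptor gene Ifngr1 -0.28 (adjusted p = 0.648), and none of these passed.

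Genes upstream of Irf7 and partners of these factors gave 0 calls at the threshold, although 1 gene upstream of Irf7 and 2 partners, all higher with IFN-gamma, had an unadjusted limma p under 0.05, as did 5.85% of all genes in that direction and 11.1% in either. In type I interferon signalling 6 genes were measured with a median log2 fold change of 0.44. Stat2, a subunit of ISGF3, had 0.76 (adjusted p = 0.249), the kinase gene Tbk1 0.45 (adjusted p = 0.728) and the receptor gene Tlr4 0.43 (adjusted p = 0.79). The interferon beta gene Ifnb1 lay near the floor, at 4.47 ± 0.24 (SD, n = 3) with IFN-gamma and 4.54 ± 0.36 (SD, n = 5) in controls. Of 6 measured transcription partners the bZIP factor gene Cebpb came closest to the threshold (log2 fold change 1.09, adjusted p = 0.0501), and it passed in 10 of 23 other settings, also when control culture 1 or 3 was omitted (adjusted p = 0.0488 and 0.042). Nfkb1 had 1.05 (adjusted p = 0.178) and Jun -0.49 (adjusted p = 0.583).

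Textbook targets of Irf1 rose in 8 of 17 measured cases and fell in 0, with a median log2 fold change of 0.94 beside -0.02 over all genes. Of all genes 0.887% were called higher and 0.697% lower. The list was put together with earlier results of these data known, so its count is a description. Those that rose were Psmb9, an immunoproteasome subunit (log2 fold change 3.33, adjusted p = 3.06e-05), Gbp2, a guanylate-binding protein (3.13, adjusted p = 8.76e-05), Psmb8, another immunoproteasome subunit (2.80, adjusted p = 0.00268) and Tap1, the peptide transporter (2.34, adjusted p = 0.00301). The others were the chemokine gene Cxcl10 (2.10, adjusted p = 0.00176), the proteasome activator genes Psme2 (1.73, adjusted p = 0.000374) and Psme1 (1.0, adjusted p = 0.0287) and the class I light chain gene B2m (1.63, adjusted p = 0.0017). B2m no longer passed in 3 of 23 other settings (adjusted p = 0.319 with no scaling, 0.0744 with a pseudocount of 1 and 0.0948 with the culture number as a block). Psme1 no longer passed in 10 of 23 other settings, including omission of IFN-gamma culture 1, 2 or 3 (adjusted p = 0.132, 0.173 and 0.0766) or of control culture 2, 5 or 6 (adjusted p = 0.0668, 0.0609 and 0.0787). Other listed targets did not pass: Casp1, which activates interleukin-1 beta, had 0.94 (adjusted p = 0.14), the nitric oxide synthase gene Nos2 0.47 (adjusted p = 0.798) and Il12b -0.52 (adjusted p = 0.723). Promoter windows were matched for 14 of the 17 genes, and 8 of these held the ISRE core that is shown in the Irf7 promoter. Among the 8 targets that rose the core was present in 6, namely B2m, Cxcl10, Gbp2, Psmb8, Psme2 and Tap1. Over all promoter windows 3.92% held the core. It was also present in 5 of 7 matched windows of the target list of Irf7 and ISGF3. Only 1 of those 5 genes, Cxcl10, rose. In the target list of Irf8 it was present in 1 of 13 matched windows. Such elements are part of why genes are listed as targets of these factors.

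Targets of the other 2 factors gave fewer calls than those of Irf1. Among all genes 0.887% were called higher and 0.697% lower. Of 22 genes listed for the type I interferon signature, driven by Irf7 and ISGF3, only 10 were measured, so much of it was not seen. Of the 10 measured 2 rose and 0 fell, with a median log2 fold change of 0.27. They were Cxcl10 and the antiviral GTPase gene Mx1, at 8.16 ± 0.22 (SD, n = 3) with IFN-gamma and 6.03 ± 0.70 (SD, n = 5) in controls (log2 fold change 2.12, adjusted p = 0.0226). Mx1 no longer passed in 8 of 23 other settings, including omission of IFN-gamma culture 1, 2 or 3 (adjusted p = 0.129, 0.119 and 0.0953) or of control culture 2 or 6 (adjusted p = 0.0609 and 0.0598). Mx and Oas genes have close relatives in the rat, and binding of their RNA to the same probes was not tested. Oas1a, Eif2ak2 and Adar, which encode antiviral enzymes acting on RNA, had 0.31, 0.56 and 0.18 (adjusted p = 0.557, 0.575 and 0.819). Of 19 measured targets of Irf8 in macrophages and microglia 1 rose and 0 fell, with a median of 0.15. It was the costimulatory receptor gene Cd40, at 5.76 ± 0.32 with IFN-gamma and 4.27 ± 0.12 in controls (log2 fold change 1.49, adjusted p = 0.00301). Il1b had -0.82 (adjusted p = 0.0724), the lysosomal protease gene Ctss 0.66 (adjusted p = 0.0835) and Il6 0.51 (adjusted p = 0.423). Il1b and Ctss both passed in 4 of 23 other settings (adjusted p = 0.0254 to 0.0346 and 0.00697 to 0.0286), and without scaling Il1b had -0.07 (adjusted p = 0.992). Whether the lists of the 3 factors differ from one another was not tested, and Cxcl10, Ifnb1, Il12b, Nos2, Tlr4 and Ccl5 stand in more than 1 of the lists. The target lists do not separate genes that a factor activates from genes that it represses. Their medians and counts are therefore no measure of a factor's activity.

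**Figure D4:**
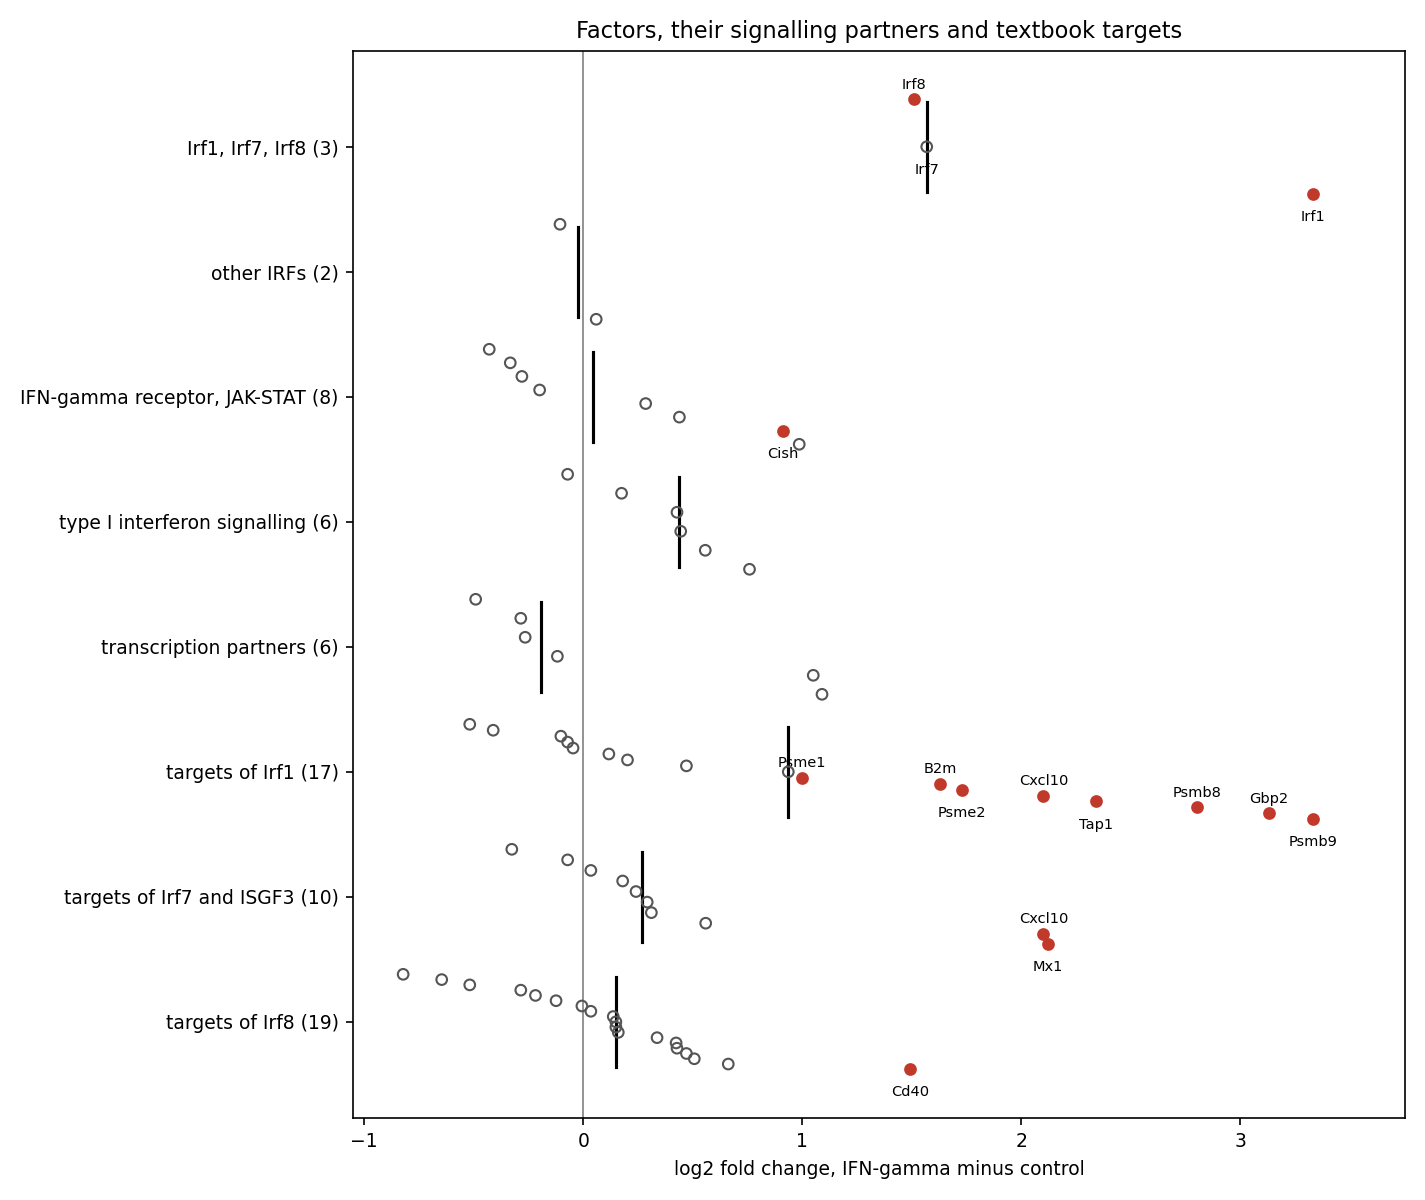
Log2 fold change, IFN-gamma minus control (horizontal axis), of Irf1, Irf7 and Irf8 and of the measured genes of 7 pathway lists (rows, number of genes in parentheses). Red points with names had an adjusted p under 0.05, open points did not (Irf7 is named as well), and vertical bars are medians; 8 of 17 targets of Irf1 are named.

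The genes whose levels followed each factor most closely over the 8 cultures were found by Pearson's r among 3050 genes with a range of at least 1 between cultures. The values share the difference between groups and the normalisation and are a description. For Irf1 they were the class II chain gene RT1-Da (r = 0.991), the invariant chain gene Cd74 (0.989), the calponin gene Cnn3 (0.988), Irf8 (0.985) and the guanine deaminase gene Gda (0.984). For Irf8 they were Irf1 (0.985), Psme2 (0.985), RT1-Da (0.984), Cnn3 (0.982) and Cd74 (0.978). All of these genes passed the test, with adjusted p-values from 5.51e-06 to 0.0177. The nearest genes to Irf7 were different ones: the respiratory complex I genes Ndufa8 (r = 0.976) and Ndufv3 (0.962), the mitochondrial assembly gene Uqcc4 (0.963), the tumour necrosis factor receptor gene Tnfrsf1a (0.955) and the prohibitin gene Phb2 (0.947). Their log2 fold changes were between 0.57 and 1.22 and none passed (adjusted p from 0.283 to 0.514). Neither Irf1 nor Irf8 was among them.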

How the data were processed

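Linear signal intensities, 1 per probe set and array, were used as deposited. Per the submitters' processing notes MAS5 and GCRMA were used, but no source used here says which of them gave these values. Array medians differed, so log2(signal + 16) was quantile normalised over all 10 arrays, the 59 array controls were dropped and the 3 technical arrays of IFN-gamma culture 1 were averaged, leaving 3 IFN-gamma and 5 control cultures. No pair of arrays shared the same signal at more than 80 probe sets. Group differences, IFN-gamma minus control, came from two-sided limma fits (lmFit, eBayes, no block; limma 3.58.1, R 4.3.3) with Benjamini-Hochberg adjustment over 8740 probe sets, tested on simulated data. P-values weigh the group difference against the spread between cultures, and the number of cultures limits the precision.

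Symbols came from the platform annotation: 7006 probe sets had 1, 308 several and 1426 none. Each gene was represented by its probe set with the highest mean level over the cultures of both groups. The members and the 7 pathway and 7 marker lists were chosen with earlier results of these data known. Named genes are all interferon regulatory factors measured and, per list, those past the threshold plus up to 3 with the next smallest adjusted p; the 5 nearest genes per factor are named by Pearson's r. Genes named outside this rule (Ifnb1 and the markers) were chosen after their values were seen. Near the floor means a mean under 5 in both groups. Alternatives covered scaling, pseudocount, dim probe sets, technical arrays, variance model, omission of each culture and a replicate block. Culture numbers 1, 2 and 3 occur in both groups, but same-numbered cultures did not deviate together (r between -0.03 and 0.004 over probe sets), so no pairing was used.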

Additional observations from a re-analysis of the deposited data

Results flagged for a closer look

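Control cultures were checked in 37 probe sets, those of the interferon regulatory factors and of the genes named by rule from the pathway lists. Ifnb1, the named markers and the nearest genes from outside these lists were not checked. In 2 of the 37 a single control culture stood apart from the other 4. The gap took more of the group's range than Dixon's critical value of 0.71 allows. About 1 in 20 such groups is marked by chance. Control culture 3 was high for the dimmer Irf7 probe set (rc_AA799861_at), at 6.22 against 5.34 to 5.54 in the other controls. Without that culture the log2 fold change was 0.51 (limma adjusted p = 0.241). Control culture 2 was high for the dimmer Irf3 probe set (rc_AA893384_at), at 4.58 against 4.24 to 4.33 in the other controls.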

How the results depend on the processing

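Irf1 kept its call in all 23 other settings, with log2 fold changes of 2.54 to 3.88, and Irf7 stayed short of the threshold in all 23. Irf8 kept its call in 22. With the culture number as a replicate block, which uses few residual degrees of freedom, Irf8 had 1.54 (adjusted p = 0.0939), Irf1 3.41 (adjusted p = 0.00961) and Irf7 1.57 (adjusted p = 0.407), and the other Irf1 probe set lost its call (2.38, adjusted p = 0.0881). The count of changed probe sets was 134 as reported, 22 with the block, 39 with no scaling, 67 with a pseudocount of 1, 166 with a pseudocount of 64, 181 with cyclic loess and 197 with all arrays and the culture as a random block. It was 68 to 154 when 1 culture was left out, with 75, 76 and 68 without IFN-gamma cultures 1, 2 and 3. Of the list genes 11 were called as reported, 2 with the block, 7 with no scaling, 7 with a pseudocount of 1, 8 to 12 without 1 culture and 14 (1 of them lower) with a pseudocount of 32 or 64 or the random block; without control culture 3, the dimmest array, the counts were 129 probe sets and 11 list genes. Targets of Irf1 higher with IFN-gamma numbered 2 (with the block) to 9. The cause of these shifts was not tested. Without scaling the median of all probe sets was 0.0985, beside -0.017 as reported. Small differences changed sign: Adar was -0.00215 with array 1a alone, Irf2 was -0.0145 with trimmed mean scaling, and with 1 culture left out Irf3 ran from -0.0668 to 0.0195 in the dimmer probe set (above 0 without control culture 2) and from -0.224 to 0.152 in the brighter one (above 0, at 0.0287 and 0.152, without IFN-gamma culture 2 or control culture 1). Signals near the floor of 4 limit what falls could be seen.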
